A study of Mus musculus with 6 samples.

Results

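Regulatory T cells are a lineage of CD4 T cells defined by the transcription factor Foxp3, which is needed for their identity and for their ability to restrain other T cells. They take up interleukin 2 through the high-affinity receptor chain Il2ra (CD25), strip costimulatory ligands from antigen-presenting cells through Ctla4, and in tumours often carry high levels of receptors of the tumour necrosis factor family. In many solid tumours they lie beside the cytotoxic CD8 T cells whose activity they limit, so the balance of these populations is a common measurement in tumour immunology.

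Here 233 barcodes of 52390 kept barcodes were taken as Foxp3 regulatory T cells in 10x Genomics 3' single-cell libraries of whole melanoma tumours. Each carried at least 1 unique molecular identifier (UMI, a tag that marks 1 captured RNA molecule) of Foxp3 and at least 1 of the T cell receptor signalling chains Cd3d, Cd3e or Cd3g. None had a UMI of the CD8 chains Cd8a and Cd8b1, and each had at most 1 UMI in all of C1qa, C1qb and C1qc, complement genes that mark macrophages. Foxp3 lies on chromosome X from 7573644 to 7595245 in the mouse build GRCm38. Foxp3, Cd3, Cd8 and C1q levels were therefore set by the choice of cells and are given only as descriptions, with no test between cell classes.

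The tumours had been grown under the skin of male C57Bl/6 mice aged 6 to 8 weeks from 600000 injected YUMMER1.7 cells, a melanoma line derived from a Braf-mutant mouse tumour and made more immunogenic by ultraviolet light. Once tumours were established, mice were allotted at random to exercise (45 minutes of daily running at a speed of 12 metres per minute, kept up for 14 days) or to a sedentary group. The labels give 3 libraries for exercise (numbered 5, 6 and 8) and 3 for sedentary (numbered 1, 2 and 3), all from the same cell line, strain and sex, and no cell type was sorted. They do not say that each library came from a separate mouse, so p-values measure only the spread between these libraries. Libraries held 8115 to 10913 barcodes and 97426009 to 131778565 UMIs.

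Exercise libraries 5, 6 and 8 gave 37, 39 and 27 regulatory T cells, and sedentary libraries 1, 2 and 3 gave 82, 23 and 25. Sedentary library 1 alone thus held 82 of the 233 cells, and it was also the deepest, with a median of 3349.5 UMIs per regulatory T cell against 1786 to 2616 in the other 5 libraries. The comparison populations were 3279 CD8 T cells (a Cd3 and a Cd8 UMI, no Foxp3) and 161 Foxp3-negative Cd4 T cells (a Cd3 and a Cd4 UMI, no Cd8 or Foxp3, at most 1 C1q UMI). CD8 T cells numbered 1056, 391 and 487 in exercise libraries and 576, 543 and 226 in sedentary libraries.

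The label was checked against genes that the choice of cells did not use. Members with a single Foxp3 UMI numbered 126 and had 259 CPM (counts per 1000000 UMIs of the class) of Il2ra, 383 of Ctla4 and 946 of Ikzf2, which encodes Helios, a transcription factor of regulatory T cells. The 107 members with 2 or more Foxp3 UMIs had 340 CPM of Il2ra, 458 of Ctla4 and 1302 of Ikzf2. Just outside the limit, 2411 barcodes that met every other condition but had no Foxp3 UMI had 7.97 CPM of Il2ra, 11.3 of Ctla4 and 60.2 of Ikzf2. All 3 markers were thus present in members with only 1 Foxp3 UMI, near the level of members with more. The 2411 barcodes reached 105634 UMIs, and CPM pooled in this way weighs deep barcodes most. They include the 161 Foxp3-negative Cd4 T cells, of which 26.1% had an Il2ra, 28.0% a Ctla4 and 42.2% an Ikzf2 UMI. Among the 233 members these shares were 59.7%, 65.7% and 94.0%, so the gap to these cells was smaller. Another 46 barcodes had Foxp3 together with a Cd8 UMI and were left out; they had 230 CPM of Il2ra and 831 of Ikzf2, closer to members than to the Foxp3-free barcodes. The 70 barcodes with Foxp3 but no Cd3 UMI had 9.08 CPM of Il2ra and 78.3 of Ikzf2, close to the Foxp3-free barcodes.

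Free RNA in droplet data can place a UMI in a cell that does not make it, so Foxp3 was counted in cells that should lack it. A Foxp3 UMI was found in 30 of 22368 barcodes of the main non-immune population, 0.134% (exact 95% binomial interval 0.0905% to 0.191%), at a median depth of 19795.5 UMIs. It was found in 11 of 4490 macrophage barcodes, 0.245% (0.122% to 0.438%), at a median of 5686.5 UMIs. Among barcodes with Cd3, no Cd8 and at most 1 C1q UMI the share was 233 of 2644, 8.81% (7.76% to 9.96%), at a median of 3676 UMIs. Among barcodes with a Cd3 and a Cd8 UMI, with Foxp3 not asked, it was 53 of 3332, 1.59% (1.19% to 2.08%), at a median of 3229 UMIs. The share among Cd8-free T cell barcodes was therefore above that of CD8 T cells at similar depth. It was also above both background shares, although the background cells were deeper. The CD8 T cell share was itself above both background shares. These intervals cover counting error only. Of the kept barcode strings, 309 occurred in more than 1 library, 17 to 30 per pair of libraries, and 1 member had such a string. Random draws would give 8.40 to 14.1 per pair, and every pair had more than its expected number. The cause was not tested.

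Some members also carried RNA of other cells. In 24 of the 233, more than 10 UMIs came from the marker list of macrophages, of dendritic cells or of the main non-immune population. These 24 had a median of 10685 UMIs against 2218 in the other 209, and they held 41.8% of all member UMIs. Their share of a library's member UMIs was 14.3%, 62.3% and 69.3% in exercise libraries 5, 6 and 8, against 35.9%, 32.4% and 12.3% in sedentary libraries 1, 2 and 3. A single barcode of 71385 UMIs held 42.4% of the member UMIs of exercise library 8. Scrublet, a doublet caller, marked 3 of the 24 and none of the other 209. Mixed barcodes thus weighed most in the sums of exercise libraries 6 and 8 and least in those of sedentary library 3 and exercise library 5. Levels below are those of the 209 barcodes without such RNA, and counts of called genes are given for all 233 and for these 209. Against CD8 T cells, log2 fold changes and adjusted p-values are those of all 233 cells unless the 209 are named.

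**Figure D1:**
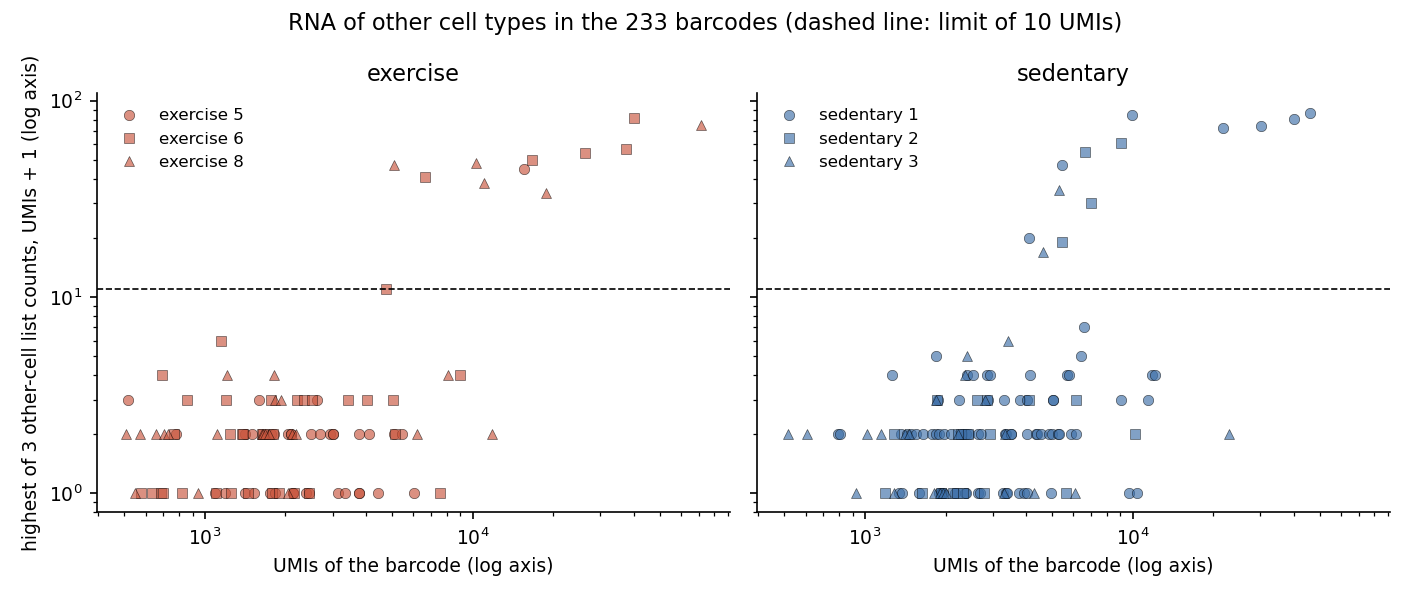
Each point is 1 of the 233 Foxp3 regulatory T cells, with exercise libraries in the left panel and sedentary libraries in the right. The x axis gives its UMIs and the y axis the highest of its UMI counts for the macrophage, dendritic and non-immune marker lists plus 1, both on log scales; the dashed line marks the limit of 10 UMIs, above which 24 barcodes lie, most of them at high depth.

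In the 209 remaining barcodes, most defining markers of other cells were at or near 0. All 6 markers of gamma-delta T cells had no UMI, and Cd79a, Ms4a1, Pax5 and Ebf1 of the B cell list had none. The 6 genes of the B cell list had 13 UMIs in all, at 53.7, 0 and 0 CPM in exercise and 21.4, 34.0 and 0 CPM in sedentary libraries. CD8 T cells limited in the same way had 0 to 2.58 CPM of this list. Csf1r, a defining receptor of macrophages, had none, and the 10 genes of the macrophage list summed to 64.4, 169 and 251 CPM in exercise libraries and 103, 68.1 and 28.1 CPM in sedentary libraries. The non-immune list summed to 183 to 402 CPM per library, with its marker Cspg4 at 0, and the lists of dendritic cells, neutrophils, natural killer cells and mast cells had 46, 12, 8 and 5 UMIs in all. Gpr83, another gene known from mouse regulatory T cells, had no UMI in these 209 cells.

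Regulatory T cells were a small share of each tumour, and the share differed more between libraries of a group than between groups. They made up 0.452%, 0.411% and 0.268% of kept barcodes in exercise libraries, against 1.03%, 0.319% and 0.263% in sedentary libraries. The means were 0.377% ± 0.0968 in exercise and 0.539% ± 0.430 in sedentary tumours (SD, n = 3 each; exact two-sided permutation test, p = 0.9). The sedentary mean rested on library 1, and without it the sedentary mean was 0.291% and the difference changed sign, to 0.0860 percentage points higher in exercise.

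Taken over T cell barcodes (at least 1 Cd3 UMI and at most 1 C1q UMI), the share was 2.38%, 4.24% and 3.07% in exercise libraries and 8.78%, 2.56% and 5.14% in sedentary libraries. The means were 3.23% ± 0.940 in exercise and 5.50% ± 3.12 in sedentary tumours (SD, n = 3 each; exact permutation p = 0.3), and the groups overlapped. These T cell barcodes still included barcodes with RNA of other cells. Without those, the share was 2.75%, 5.81% and 3.70% in exercise libraries. In sedentary libraries it was then 10.6%, 2.82% and 6.95% (exact permutation p = 0.3). CD8 T cells outnumbered regulatory T cells in every library, by 28.5, 10.0 and 18 to 1 in exercise libraries and by 7.02, 23.6 and 9.04 to 1 in sedentary libraries. On the log2 scale this ratio averaged 4.11 ± 0.76 in exercise and 3.52 ± 0.92 in sedentary tumours (SD, n = 3 each; exact permutation p = 0.4). With 3 libraries against 3, the smallest p that this test can give is 0.1.

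A stricter reading that asked for at least 2 Foxp3 UMIs gave 1.10%, 1.09% and 0.910% of T cell barcodes in exercise libraries and 5.35%, 1.23% and 2.26% in sedentary libraries. These groups did not overlap (1.03% ± 0.105 in exercise and 2.95% ± 2.15 in sedentary tumours, SD, n = 3 each; exact permutation p = 0.1, the smallest possible). The library with the highest value, sedentary library 1, was also the one with the deepest regulatory T cells. T cell barcodes with at least 1500 UMIs were also thinned to 1500 UMIs. The share with at least 1 Foxp3 UMI was then 2.65% in exercise and 4.97% in sedentary tumours (means, n = 3 each, exact permutation p = 0.3). Shallower members, left out of this, numbered 7, 16 and 9 in exercise libraries and 8, 2 and 8 in sedentary libraries. The share at 2 or more Foxp3 UMIs was not taken at equal depth, nor without RNA of other cells. At 2 or more Foxp3 UMIs the groups overlapped in the share of kept barcodes (means 0.131% in exercise and 0.300% in sedentary tumours, exact permutation p = 0.5). They also overlapped in the log2 ratio of CD8 T cells to these cells (means 5.72 and 4.50, exact permutation p = 0.2).

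**Figure D2:**
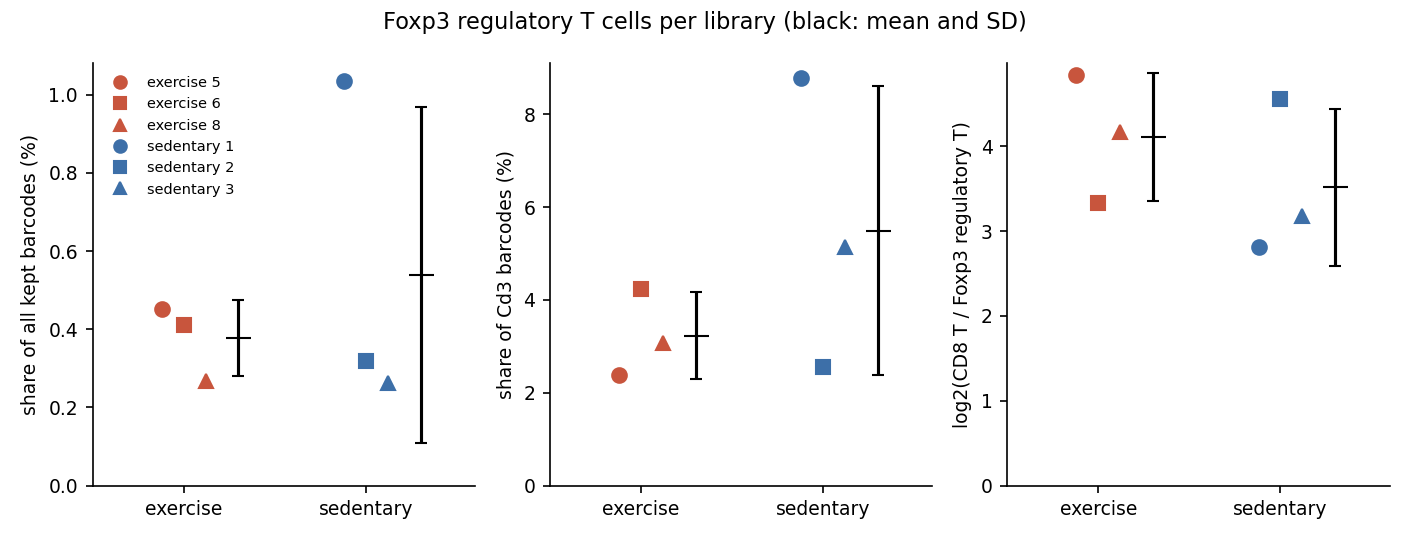
Foxp3 regulatory T cells by library, with exercise left of sedentary in each panel: percent of kept barcodes, percent of T cell barcodes, and the log2 ratio of CD8 T cells to regulatory T cells. Points are libraries and black marks are the mean ± SD of 3 libraries; sedentary library 1 stands at 1.03% and 8.78%, above the other 5.

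Against CD8 T cells of the same tumours, regulatory T cells had a distinct RNA profile in every library. Sums of UMIs per library and class were compared with edgeR's quasi-likelihood test with the library as a block, and genes were called at a Benjamini-Hochberg adjusted p under 0.05. Of 7506 genes tested, 480 were called (6.39%): 301 were higher in regulatory T cells (4.01%) and 179 lower (2.38%). Among the 209 cells without RNA of other cells, set against CD8 T cells limited in the same way, 958 of 5217 genes were called (18.4%), of which 490 were higher (9.39%) and 468 lower (8.97%). DESeq2, a second count model, called 473 of the 7506 genes (6.3%), with 287 higher (3.82%) and 186 lower (2.48%). The edgeR calls in common numbered 437, all in the same direction, which is 91.0% of the first set and 45.6% of the second. Sedentary library 1 carried the most regulatory T cell UMIs, and without it 260 genes were called in all 233 cells.

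**Figure D3:**
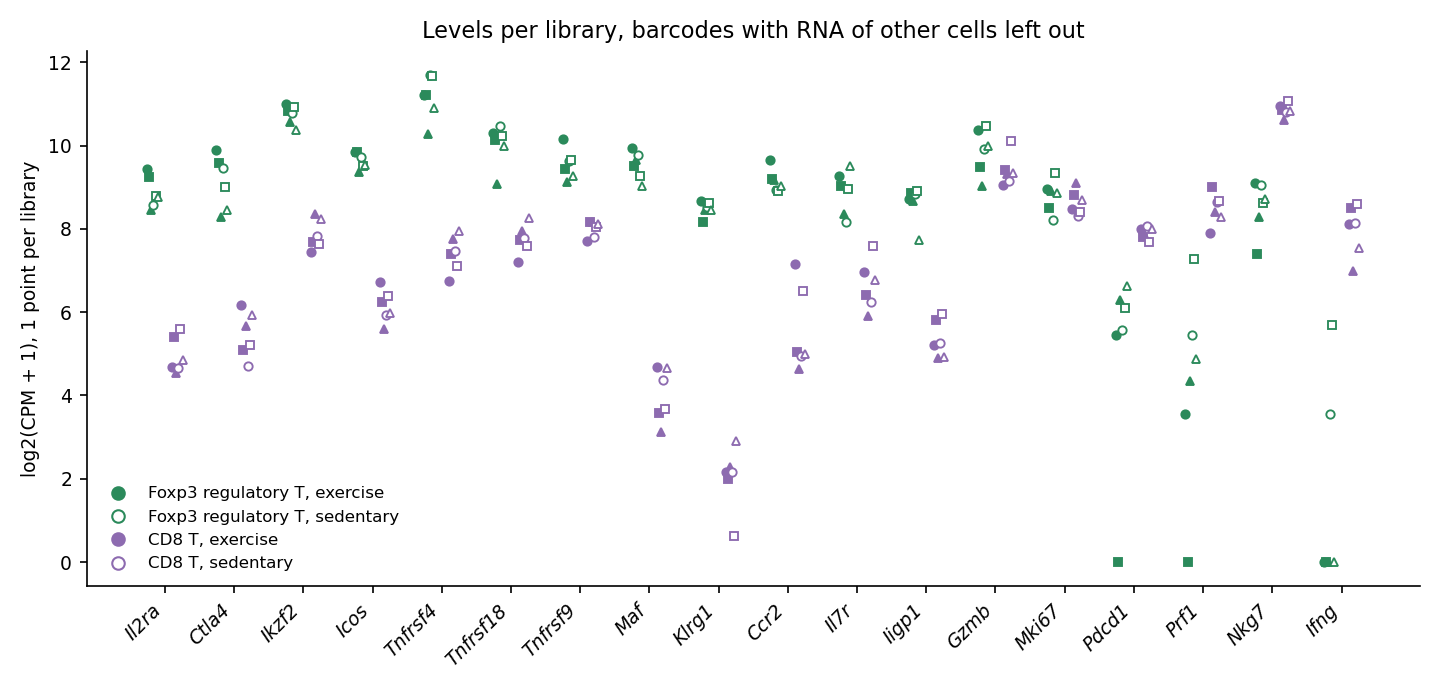
Levels of 18 genes as log2(CPM + 1) in Foxp3 regulatory T cells (green) beside CD8 T cells (purple), 1 point per library, filled for exercise and open for sedentary, in barcodes without RNA of other cells. Il2ra, Ctla4, Ikzf2, Icos, Tnfrsf4 and Klrg1 lay above the CD8 T cells in all 6 libraries, and Pdcd1, Prf1, Nkg7 and Ifng lay below them in all 6.

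The identity markers were higher in regulatory T cells in all 6 libraries. Il2ra was at 687, 610 and 348 CPM in regulatory T cells of exercise libraries and 381, 442 and 436 CPM in those of sedentary libraries, against 22.4 to 47.5 CPM in CD8 T cells. Ctla4, on chromosome 1 from 60887000 to 60915832, was at 956, 765 and 309 CPM in exercise and 709, 510 and 352 CPM in sedentary regulatory T cells, against 24.9 to 71.5 CPM in CD8 T cells. Ikzf2 averaged 1737 ± 263 CPM in regulatory T cells and 239 ± 61.5 CPM in CD8 T cells (SD, n = 6 libraries). No library of one class reached the range of the other for these 3 genes, as for 531 of the 5217 genes tested in the 209 cells (10.2%). Their log2 fold changes in all 233 cells were 4.0 ± 0.23 for Il2ra (SE; edgeR adjusted p = 4.7e-09), 3.82 ± 0.29 for Ctla4 (adjusted p = 1.04e-07) and 2.83 ± 0.23 for Ikzf2 (adjusted p = 3.06e-07).

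Of a list of 20 core regulatory T cell genes, 14 were tested, and 10 were higher and 2 lower (median log2 fold change 2.42, against 0.00 over all genes tested); in the 209 cells 13 were tested, and 9 were higher and 3 lower. Besides the markers above, the higher members included Izumo1r (folate receptor 4, at 152 ± 57.6 CPM in regulatory T cells and 4.12 ± 3.52 CPM in CD8 T cells), Cd5, a damper of T cell receptor signalling, Capg, an actin-capping protein, and Ikzf4 (Eos), which had too few UMIs to be tested in the 209 cells. The lower members went against the list's name: Nrp1, a semaphorin receptor used in mice as a mark of thymus-derived regulatory T cells, was at 17.6 ± 8.54 CPM in regulatory T cells and 77.7 ± 7.78 CPM in CD8 T cells (log2 fold change −2.21 ± 0.35, edgeR adjusted p = 0.000484). Rgs16, a regulator of G protein signalling, fell by 2.28 on the log2 scale. Il2rb, a signalling chain of the interleukin 2 receptor, joined the lower members in the 209 cells.

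Costimulatory receptors formed one of the most uniform groups. Of 11 listed, 9 were tested, and 7 were higher (Icos, Tnfrsf4, Tnfrsf18, Tnfrsf1b, Cd2, Tnfrsf9 and Cd28) and 1 lower (Cd226, an activating receptor for nectin ligands), with the same counts in the 209 cells. Tnfrsf4 (OX40) was at 2395, 2361 and 1237 CPM in exercise and 3311, 3249.6 and 1913.5 CPM in sedentary regulatory T cells, against 106 to 246 CPM in CD8 T cells. Icos, a CD28-family receptor, was at 924, 921 and 657 CPM in exercise and 844, 732 and 746 CPM in sedentary regulatory T cells, against 47.3 to 105 CPM in CD8 T cells. Tnfrsf9 (4-1BB), which activated CD8 T cells also make, differed less, at 767 ± 209 CPM in regulatory T cells and 258 ± 34.3 CPM in CD8 T cells (log2 fold change 1.43 ± 0.24, edgeR adjusted p = 0.000631). Summed over the list, the level was 6700 ± 1532 CPM in regulatory T cells and 1519 ± 74.2 CPM in CD8 T cells (SD, n = 6 libraries). Tnfrsf4 and Tnfrsf18 (GITR) are neighbours on chromosome 4, starting 12321 bases apart, and Ctla4 and Icos start 90927 bases apart on chromosome 1.

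Genes reported from effector regulatory T cells of tissues and tumours were also higher. Of 25 listed, 19 were tested, and 13 were higher and 1 lower (Id2), with a median log2 fold change of 1.41; the 209 cells gave the same counts, with 17 tested. Klrg1, an inhibitory lectin receptor of differentiated T cells, was at 408, 285 and 348 CPM in exercise and 367, 391 and 352 CPM in sedentary regulatory T cells, against 0.533 to 6.52 CPM in CD8 T cells (log2 fold change 6.72 ± 0.34, edgeR adjusted p = 1.2e-09). Maf, a transcription factor of interleukin 10-producing T cells, averaged 755 ± 171 CPM in regulatory T cells and 16.6 ± 7.39 CPM in CD8 T cells (SD, n = 6). Prdm1 (Blimp-1), Batf, Gata3 and Rora, factors of effector and tissue regulatory T cells, were all higher by 1.30 to 1.82 on the log2 scale. The call of Batf was lost without sedentary library 1, with log2 fold changes of 1.14 to 1.48 over the 6 fits without a library. Areg, an epidermal growth factor family ligand linked to tissue repair by regulatory T cells, was at 79.9 ± 29.7 CPM in regulatory T cells and 4.39 ± 2.22 CPM in CD8 T cells.

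Among genes through which these cells act on others, the picture was divided. Of 18 suppressive effectors, 12 were tested, and 4 were higher (Il2ra, Ctla4, Itgb8 and Areg) and 1 lower (Prf1). In the 209 cells 11 were tested, and Gzmb and Tgfb1, an inhibitory cytokine, were also higher and Lag3 also lower, which gave 6 higher and 2 lower. Itgb8, an integrin chain that releases active transforming growth factor beta, was at 83.6 ± 48.2 CPM in regulatory T cells and 0.867 ± 0.981 CPM in CD8 T cells. Il10, an anti-inflammatory cytokine, had too few UMIs to be tested; it was at 96.7, 90.8 and 0 CPM in exercise and 157, 136 and 56.3 CPM in sedentary regulatory T cells, against 0 to 2.54 CPM in CD8 T cells. Ccr8, a chemokine receptor reported from tumour regulatory T cells, was likewise untested, at 36.3 ± 32.6 CPM in regulatory T cells and 3.20 ± 1.39 CPM in CD8 T cells. Itgae (CD103) was at 70.0 ± 47.9 CPM in regulatory T cells and 2.52 ± 2.14 CPM in CD8 T cells, also untested.

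Gzmb and the rest of the cytotoxic programme parted. Of 15 cytotoxic genes, 12 were tested, and 11 were lower in regulatory T cells, both in all 233 cells (median log2 fold change −3.53) and in the 209. Gzmb, the granule protease granzyme B, was the exception: it was at 1332, 714 and 522 CPM in exercise and 972, 1429 and 1013 CPM in sedentary regulatory T cells, against 534 to 1103 CPM in CD8 T cells. It was not called in all 233 cells (log2 fold change 0.59 ± 0.25, edgeR adjusted p = 0.236) and was called higher in the 209 cells (0.40 ± 0.13, edgeR adjusted p = 0.0203), with 5 of 6 libraries higher. Prf1 (perforin), which lets granzymes into target cells, was at 42.3 ± 56.2 CPM in regulatory T cells and 367 ± 93.8 CPM in CD8 T cells. Nkg7, a granule protein, was at 395 ± 142 CPM in regulatory T cells and 1856 ± 193 CPM in CD8 T cells. The receptors Klrd1, Klrk1 and Klre1, shared by natural killer cells and CD8 T cells, were lower, with log2 fold changes of −4.02, −4.38 and −5.61.

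Most effector cytokines that could be tested were lower. Of 19 listed, 7 were tested, and 6 were lower (Ifng, Ccl5, Ccl1, Xcl1, Ccl3 and Ccl4) and none higher; the same 6 were the members tested in the 209 cells, and all were lower there. Ifng had no UMI in any of the 3 exercise libraries and was at 10.7, 51.0 and 0 CPM in sedentary regulatory T cells, against 127 to 383 CPM in CD8 T cells (log2 fold change −5.06 ± 0.41 in all 233 cells, edgeR adjusted p = 2.5e-07). Ccl5, a chemokine that attracts T cells, was at 520 ± 175 CPM in regulatory T cells and 2654 ± 1012 CPM in CD8 T cells. Xcl1, which attracts cross-presenting dendritic cells, had no UMI in the 209 regulatory T cells, at least 24.9-fold lower than in CD8 T cells when set against a floor of 3 counts over all libraries.

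Inhibitory receptors split between classes. Of 11 listed, 8 were tested: Ctla4 and Vsir (VISTA) were higher, and Pdcd1, Cd160 and Cd96 were lower. The call of Vsir was lost without exercise library 5 and without sedentary library 1, with log2 fold changes of 0.92 to 1.28 when single libraries were left out. Pdcd1 (PD-1) was at 43.0, 0 and 77.3 CPM in exercise and 46.3, 68.1 and 98.5 CPM in sedentary regulatory T cells, against 204 to 269 CPM in CD8 T cells (log2 fold change −2.41 ± 0.33, edgeR adjusted p = 9.87e-05). Lag3 and Havcr2 (TIM-3) were not called in all 233 cells (edgeR adjusted p = 0.263 and 0.421) and were called lower in the 209 cells, by −0.77 ± 0.20 and −0.71 ± 0.20 on the log2 scale (edgeR adjusted p = 0.00376 and 0.00773). Tigit was untested, at 27.2 ± 19.99 CPM in regulatory T cells and 15.7 ± 6.88 CPM in CD8 T cells.

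Some genes of resting T cells and of trafficking were also higher. Il7r, the interleukin 7 receptor that is usually low on regulatory T cells, was at 612, 519 and 328 CPM in exercise and 288, 493 and 732 CPM in sedentary regulatory T cells, against 59.5 to 191 CPM in CD8 T cells (log2 fold change 2.32 ± 0.20, edgeR adjusted p = 5.82e-07). No library of one class reached the range of the other for Il7r. Of 14 genes of resting T cells, 10 were tested, and 5 were higher, among them Il7r, Klf2, Lef1 and Satb1, and none lower; the 209 cells gave the same counts, with 7 tested. Satb1, a chromatin organiser of T cells, kept its call in 1 of 6 fits without a library, the one without exercise library 8, with log2 fold changes of 0.59 to 0.87. Tcf7, a factor of memory and precursor T cells, was not among them: it was at 21.5, 13.0 and 0 CPM in exercise and 3.56, 0 and 0 CPM in sedentary regulatory T cells, against 11.03 to 21.5 CPM in CD8 T cells (edgeR adjusted p = 0.502). Of 26 trafficking genes, 14 were tested, and 6 were higher and 2 lower, against 7 higher and 4 lower of 13 in the 209 cells. Ccr2, a monocyte chemokine receptor, was at 575 ± 122 CPM in regulatory T cells and 58.1 ± 47.9 CPM in CD8 T cells, whereas Cxcr6, a receptor of tumour-resident CD8 T cells, was at 41.1 ± 33.6 CPM in regulatory T cells and 437 ± 82.8 CPM in CD8 T cells.

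Interferon-response genes were higher as a group. Of 22 listed, all were tested, and 13 were higher and none lower (median log2 fold change 0.89); in the 209 cells 19 of 22 were higher (median 1.14, against −0.03 over all genes tested). Iigp1, an interferon-induced GTPase of pathogen defence, was at 419, 467 and 406 CPM in exercise and 456, 476 and 211 CPM in sedentary regulatory T cells, against 28.8 to 60.8 CPM in CD8 T cells. Ifi27l2a averaged 4611 ± 846 CPM in regulatory T cells and 1533 ± 378 CPM in CD8 T cells. Summed over the list, the level was 9752 ± 2175 CPM in regulatory T cells and 3686 ± 466 CPM in CD8 T cells (SD, n = 6 libraries).

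Some genes of the interleukin 2 response were also higher. Of 16 listed, 14 were tested, and 6 were higher and 1 lower (in the 209 cells, 7 higher and 2 lower of 12). The higher ones included the STAT5 targets Pim1 (332 ± 66.0 CPM in regulatory T cells and 70.1 ± 7.98 CPM in CD8 T cells), Cish, Socs1 and Socs2. Bcl2, a survival factor, was the lower one (15.7 ± 8.64 CPM in regulatory T cells and 155 ± 39.7 CPM in CD8 T cells). Of 16 hypoxia genes, 13 were tested, and 4 were higher (Ddit4, Hilpda, Mxi1 and Bnip3) and none lower, and in the 209 cells 6 of 10 were higher, with Ndrg1 and P4ha1 added. Of 17 glycolysis genes, all were tested, and 2 were higher, against 5 of 16 in the 209 cells, with none lower in either. Of 17 tested lineage factors of a list of 21, 4 were higher and 6 lower (5 and 8 in the 209 cells), with Eomes, Tox and Runx3, factors of CD8 T cells, among the lower ones. Of 23 proliferation genes, all tested, none was called in all 233 cells (median log2 fold change −0.04), and Stmn1, Pclaf and Cenpe were called lower in the 209 cells. Mki67 (Ki-67) was at 458 ± 121 CPM in regulatory T cells and 404 ± 86.6 CPM in CD8 T cells (edgeR adjusted p = 0.705). Of 12 tested genes of the T cell receptor response, 4 were higher and 2 lower, with the same counts among the 9 tested in the 209 cells. Of 15 tested genes that tissue dissociation can switch on, 3 were higher (Junb, Zfp36 and Hspa1a) and none lower in all 233 cells. In the 209 cells 11 were tested, Zfp36 and Hspa1a not among them, and Junb, Jun and Hsp90aa1 were higher and Btg2 lower. Of 7 tested glucocorticoid-response genes, 1 was higher (Il7r), as in the 209 cells, where 3 were tested. Of 10 tested ligand genes, 3 were lower (Ccl5, Ccl1 and Ccl8) and none higher in all 233 cells. Without RNA of other cells 6 were tested, Ccl8 not among them, and Cxcl10 and Tgfb1 were higher and Ccl5, Ccl1 and Cd86 lower. Cd4 itself was higher (log2 fold change 5.18 ± 0.37, edgeR adjusted p = 8.71e-08), and the T cell receptor constant genes Trbc1 and Trbc2 were lower. Several of these calls were lost when a library was left out, with no change of direction. Bnip3 lost its call without exercise library 6, sedentary library 1 or sedentary library 3 (log2 fold changes of 0.64 to 0.95 without single libraries), and Mxi1 without exercise library 5 or sedentary library 3 (0.78 to 1.05). Runx3 lost its call without exercise library 6 or sedentary library 1 (−1.49 to −0.95), Trbc1 without sedentary library 1 or 2 (−0.91 to −0.60), and Hspa1a without sedentary library 2 (1.43 to 2.34, in the 4 fits that tested it).

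To see how many cells carried each gene, barcodes were thinned to 1500 UMIs, which 159 of the 209 regulatory T cells, 2730 CD8 T cells and 111 Foxp3-negative Cd4 T cells could supply. Of the 159, 60 came from exercise and 99 from sedentary libraries. Unlike the regulatory T cells, the CD8 T cells and Foxp3-negative Cd4 T cells here still included barcodes with RNA of other cells. At least 1 Tnfrsf4 UMI was left in 91.2% of regulatory T cells, 14.2% of CD8 T cells and 55.0% of Foxp3-negative Cd4 T cells, against 0.3% of macrophages thinned in the same way. Ikzf2 was left in 87.4% of regulatory T cells, 19.9% of CD8 T cells and 32.4% of Foxp3-negative Cd4 T cells, and Il2ra in 45.9%, 3.6% and 23.4% of these classes. Gzmb was left in 63.5% of regulatory T cells, against 38.8% of CD8 T cells and 0.5% of macrophages. Klrg1 was found in 36.5% of regulatory T cells and 0.4% of CD8 T cells, and Pdcd1 in 8.2% of regulatory T cells and 25.7% of CD8 T cells. Most regulatory T cells thus carried Tnfrsf4, Ikzf2 and Gzmb at this depth, whereas Klrg1, Mki67 (25.8%) and Il10 (11.3%) were each seen in a minority. The Mki67 shares were 21.6% in CD8 T cells and 13.3% in macrophages, and without thinning the order turned, at 31.1% in the 209 regulatory T cells and 33.3% in CD8 T cells. Without thinning, the shares in the 209 regulatory T cells were 91.9% for Tnfrsf4, 94.3% for Ikzf2, 60.8% for Il2ra, 69.9% for Gzmb, 47.4% for Klrg1 and 11% for Pdcd1. In all CD8 T cells they were 26.7% for Tnfrsf4, 38.3% for Ikzf2, 8.30% for Il2ra, 53.1% for Gzmb, 1.01% for Klrg1 and 46.9% for Pdcd1. The order of the classes was the same with and without thinning for these 6 genes. With no regulatory T cell left out for RNA of other cells, 183 could be thinned. Their shares were 83.6% for Tnfrsf4, 80.3% for Ikzf2, 39.9% for Il2ra, 63.4% for Gzmb, 35.5% for Klrg1, 6.56% for Pdcd1 and 21.9% for Mki67.

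**Figure D4:**
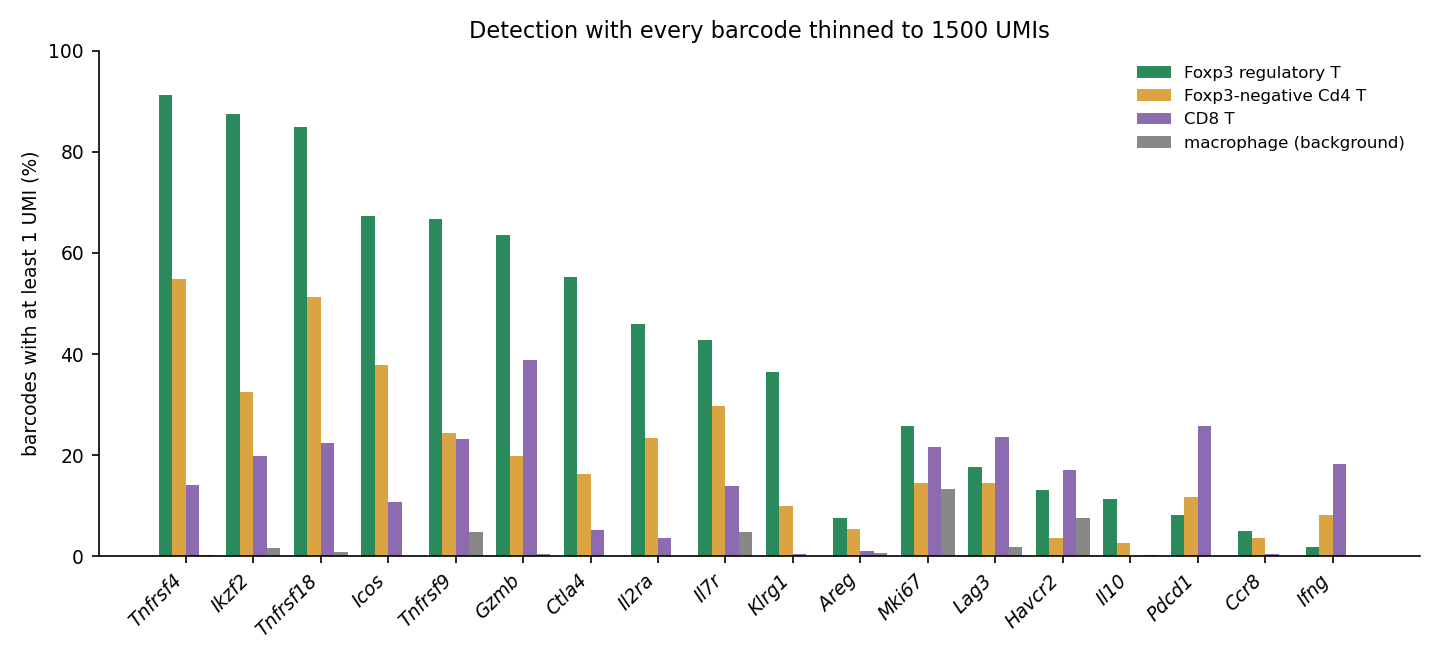
Percent of cells with at least 1 UMI of each of 18 genes after thinning to 1500 UMIs, as bars from 0: Foxp3 regulatory T cells without RNA of other cells, Foxp3-negative Cd4 T cells, CD8 T cells and, as background, macrophages. Tnfrsf4 reached 91.2% of regulatory T cells and 0.3% of macrophages. Only the regulatory T cells were limited to barcodes without RNA of other cells.

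Within the regulatory T cells, some genes were found together more or less often, which is given as a description because cells of 1 library are not replicates and detection at this depth is incomplete. Over 100 draws, Il10 was found in 17.3% of cells with Klrg1 and in 7.33% of cells without it. On average 10.5 cells had both genes. Mki67 was found in 19.8% of cells with Gzmb and in 35.8% of cells without it. These pairs were picked from a larger set, in which some differed little. Il7r, for example, was found in 43.6% of cells with Klrg1 and in 41.8% of cells without it.

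Members with at least 1 Ccr8 UMI numbered 19 (2, 5 and 0 in exercise libraries and 7, 1 and 4 in sedentary libraries) and were set against the other members of the same library in the 5 libraries that had any. Of 932 genes tested with edgeR's quasi-likelihood test, 0 were called (0.0%). The smallest adjusted p was 0.197, 55 genes had an unadjusted p under 0.05, and DESeq2 called 1 gene, higher (0.107%). The genes with the smallest p that were estimated higher in Ccr8-detected cells, none of which passed, were the replication-linked Hist1h1b, Hist1h2ae, Mki67, Pclaf and Tuba1b. Mki67 was at 1244 ± 1056 CPM in Ccr8-detected cells of the 209 (SD, n = 5 libraries) and at 389 ± 74.0 CPM in Ccr8-undetected cells (SD, n = 6 libraries). Without exercise library 6, 24 genes were called, and that library held 5 of the 19 cells. In the 209 cells 0 of 516 genes were called (0.0%), with 48 at an unadjusted p under 0.05, and DESeq2 called 0. No call is therefore made for this comparison.

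The members were also set against Foxp3-negative Cd4 T cells, among which regulatory T cells whose Foxp3 was not captured cannot be told apart. Of 1703 genes tested, 3 were called (0.176%): Iigp1 and Cst3, a secreted protease inhibitor, were higher in regulatory T cells (0.117%) and Id2, an inhibitor of E proteins, was lower (0.0587%), with an edgeR adjusted p of 0.0447 each. DESeq2 called 4 (0.235%), 2 in each direction. In barcodes without RNA of other cells, 39 of 967 genes were called (4.03%), 15 higher (1.55%) and 24 lower (2.48%), with Iigp1 and Id2 in both sets. Ikzf2 averaged 1737 ± 263 CPM in regulatory T cells and 938 ± 573 CPM in Foxp3-negative Cd4 T cells (SD, n = 6; log2 fold change 1.11 ± 0.20, edgeR adjusted p = 0.00139). Il2ra averaged 484 ± 134 CPM in regulatory T cells and 215 ± 147 CPM in Foxp3-negative Cd4 T cells and was higher in all 6 libraries (1.30 ± 0.25, edgeR adjusted p = 0.00225). Ctla4, Tnfrsf4, Klrg1, Pim1 and the interferon-induced Igtp were also higher in this set, by 0.68 to 1.25 on the log2 scale. Id2 averaged 173 ± 90.6 CPM in regulatory T cells and 572 ± 111 CPM in Foxp3-negative Cd4 T cells and was lower in all 6 libraries. Several of these calls rested on few cells: exercise library 8 held 4 Foxp3-negative Cd4 T cells, and in all barcodes the count of calls was 0 when any 1 of the other 5 libraries was left out and 7 without exercise library 8. In barcodes without RNA of other cells, 14 genes were called without exercise library 5, 13 without sedentary library 2 and 25 without sedentary library 3. The counts of higher genes were then 3, 4 and 13, against 15 with all libraries. Ikzf2, Iigp1 and Id2 were called in each of the 6 fits without a library, and Il2ra in all but the one without exercise library 5. Ctla4, Tnfrsf4, Klrg1 and Pim1 were called in 3 of the 6 and Igtp in 2, with no change of direction.

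Between exercise and sedentary tumours, no gene of the regulatory T cells was called. Of 2318 genes tested with edgeR's quasi-likelihood test, 0 were called (0.0%). The smallest adjusted p was 0.635, and 139 genes had an unadjusted p under 0.05. DESeq2 called 2 genes lower in exercise (0.0863%), Plac8 and Tyrobp, an adaptor of myeloid and natural killer cell receptors. Beside this, the macrophage list in all 233 cells summed to 55.2, 147 and 392 CPM in exercise and 228, 1622 and 481 CPM in sedentary libraries, and in the 209 cells neither gene had enough UMIs to be tested. In the 209 cells, 0 of 1252 genes were called by edgeR and 0 by DESeq2, with 44 at an unadjusted p under 0.05 in edgeR. None of the 28 gene lists had a called member. Without exercise library 5, 146 genes were called in all 233 cells (93 higher and 53 lower) and 3 in the 209 cells; the mixed barcodes' shares of the 2 exercise libraries then left are the 62.3% and 69.3% given above, and their part in the 146 calls was not tested beyond this.

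**Figure D5:**
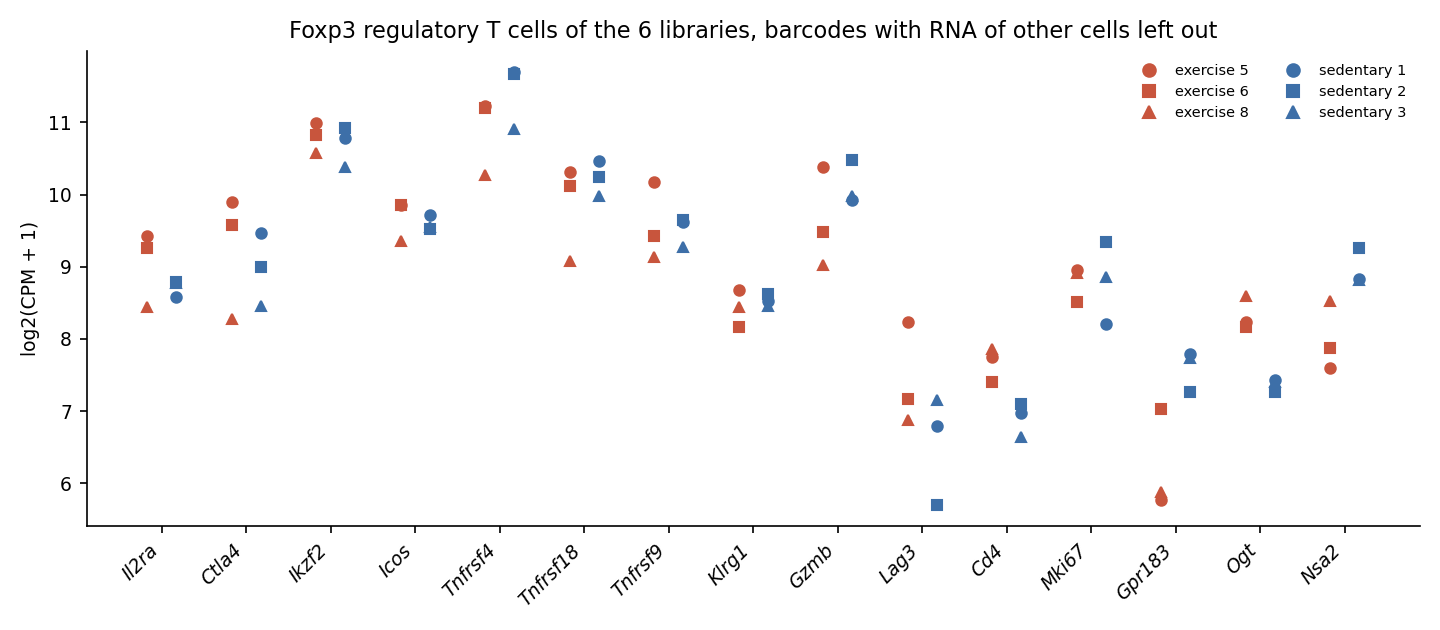
Levels of 15 genes in Foxp3 regulatory T cells without RNA of other cells as log2(CPM + 1), 1 point per library, exercise left of sedentary for each gene. The groups overlap for Ctla4, Ikzf2, Icos, Klrg1 and Mki67, and they stand apart for Cd4, Gpr183, Ogt and Nsa2, as they do for 10.3% of all genes tested; none of the 4 passed the test across all genes.

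The identity markers did not pass the test between the groups. In the 209 cells, Il2ra averaged 548 ± 178 CPM in exercise and 420 ± 33.8 CPM in sedentary tumours, Ctla4 677 ± 332 CPM in exercise and 524 ± 179 CPM in sedentary tumours, and Ikzf2 1795 ± 258 CPM in exercise and 1679.5 ± 309.9 CPM in sedentary tumours (SD, n = 3 each). Their log2 fold changes were 0.46 ± 0.26, 0.36 ± 0.31 and 0.12 ± 0.20 (SE), with an edgeR adjusted p of 0.975 each. The 10 core genes tested had a median log2 fold change of 0.12, against −0.01 over all 1252 genes. Tnfrsf4 averaged 1998 ± 659 CPM in exercise and 2825 ± 790 CPM in sedentary tumours (log2 fold change −0.48 ± 0.24, edgeR adjusted p = 0.975), and the groups overlapped.

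The exercise and sedentary libraries of the 209 cells did not overlap for 129 of the 1252 genes tested (10.3%), 63 higher (5.03%) and 66 lower (5.27%) in exercise. Cd4, Gpr183 and Ogt were among them, and none passed the test across all genes. Cd4, the coreceptor, was at 215, 169 and 232 CPM in exercise and 125, 136 and 98.5 CPM in sedentary libraries (unadjusted p = 0.0321, edgeR adjusted p = 0.975). Gpr183, an oxysterol receptor that guides lymphocytes, was at 53.7, 130 and 58.0 CPM in exercise and 221, 153 and 211 CPM in sedentary libraries, and it had the smallest p of all genes in the 233 cells (log2 fold change −1.84 ± 0.35, edgeR adjusted p = 0.635). Ogt, the enzyme that attaches O-linked N-acetylglucosamine to proteins, was at 301, 285 and 386 CPM in exercise and 171, 153 and 169 CPM in sedentary libraries. None of these 3 genes can be called changed, and a separation of this kind was shared by 10.3% of all genes tested. Lag3 was at 301, 143 and 116 CPM in exercise and 110, 51.0 and 141 CPM in sedentary libraries, with overlap. Gzmb was at 856 ± 423 CPM in exercise and 1138 ± 253 CPM in sedentary libraries, also with overlap.

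The summed level of the 16 hypoxia genes in the 209 cells was 1063, 856 and 792 CPM in exercise and 1122, 1565 and 1365 CPM in sedentary libraries, without overlap; 3 of the 16 had enough UMIs to be tested and none was called. The sum of the 17 glycolysis genes was 7884, 6746 and 8173 CPM in exercise and 8420, 8218 and 9005 CPM in sedentary libraries, also without overlap. These were 2 of the 28 lists, both lower in exercise, and the sums of the other 26 overlapped. Single genes stood apart in the same way in 129 of 1252 (10.3%). No test was run on the sums, and neither list can be called changed. Interferon-response and proliferation sums overlapped, at 9689, 11144 and 8792 CPM in exercise and 9670, 12828 and 6388 CPM in sedentary libraries for the interferon list, and at 3878, 5111 and 6318 CPM in exercise and 4393, 5734 and 5853 CPM in sedentary libraries for proliferation.

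Whether exercise went with a different change in regulatory T cells than in CD8 T cells was tested directly as an interaction, with the library as a block. Of 8419 genes, 2 were called in all 233 cells (0.0238%), both lower, and 3 of 6219 in barcodes without RNA of other cells (0.0482%), also lower; DESeq2 called 0 in either. Plac8, a small cysteine-rich protein of leukocytes, was called in both (log2 difference −3.20 ± 0.53 in all cells, edgeR adjusted p = 0.0283, and −2.71 ± 0.56 in the 209, edgeR adjusted p = 0.00339). Its level in regulatory T cells was 21.5, 13.0 and 38.6 CPM in exercise and 182, 17.01 and 0 CPM in sedentary libraries, and in CD8 T cells 703, 548 and 862 CPM in exercise and 369, 629 and 1010 CPM in sedentary libraries. The 209 cells summed to 51753 to 280873 UMIs per library, so all regulatory T cell values but that of sedentary library 1 rest on few UMIs. Sedentary library 1 held the one high regulatory T cell value, and in the 209 cells the difference ranged from −3.34 to 1.80 when single libraries were left out and was called in 2 of 6 such fits. Cd74, the invariant chain of antigen-presenting cells, was called in all 233 cells (−1.98 ± 0.35, edgeR adjusted p = 0.0349) and had the opposite sign in the 209 (0.52 ± 0.27, edgeR adjusted p = 1).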

How the data were processed

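The authors deposited, for each of 6 libraries, unnormalised UMI counts for every gene in every called barcode. The submitters' processing notes name Cell Ranger 6.1.2 and the build mm10, whereas the file headers give a software version of 3.1.0. Barcodes had already been called as cells and free RNA was not corrected for. Gene positions came from GENCODE M21 (GRCm38), in which the identifiers of 31011 of the 31053 genes in the files occur.

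A filter on barcodes (minimum 300 genes and 500 UMIs, maximum 20% of UMIs from mitochondrial genes) removed 5961 of 58351. Class sums per library held 81021 to 438497 UMIs for regulatory T cells and 1227119 to 5181255 for CD8 T cells. CPM values are a gene's UMIs scaled to a class sum of 1000000. Sums were tested with edgeR 4.0.16 (TMM scaling, filterByExpr, quasi-likelihood test, Benjamini-Hochberg adjustment, threshold 0.05) in R 4.3.3. DESeq2 1.42.0 was the second tool, and adjusted p-values that it gave as NA stayed NA. Foxp3 and the Cd3, Cd8 and C1q genes got no test where they set the classes compared. Cd4 got none against Foxp3-negative Cd4 T cells, and Ccr8 got none between Ccr8-detected and Ccr8-undetected cells. In the exercise comparison within regulatory T cells these genes were not held out. Shares were compared with exact two-sided permutation tests in scipy 1.17.1. Doublets were marked with Scrublet in scanpy 1.11.5, which called 861 kept barcodes, and were left out only in an alternative. The scripts were tested on simulated counts.

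The cells and the 28 gene lists were chosen with earlier results of these data known, so nothing here is an independent check of them. Genes named are list members that passed the test, in order of p, a fixed set of regulatory T cell genes whatever their result, and the genes with the smallest p in each direction, without mitochondrial and ribosomal protein genes. The limit of 10 UMIs for RNA of other cells was set after seeing the data. Binomial intervals are exact (Clopper-Pearson, 95%). The values of some genes are not reported here.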

Additional observations from a re-analysis of the deposited data

Results flagged for a closer look

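Genes were listed here when the test of the interaction itself found that the change with exercise differed between regulatory T cells and CD8 T cells. Plac8 had a log2 difference of −3.20 in all 233 cells and −2.71 in the 209 cells without RNA of other cells, with the levels given above. Cd74 had −1.98 in all 233 cells, where dendritic and macrophage list genes were also present, and 0.52 in the 209 cells, in which its level in regulatory T cells was 440, 843 and 290 CPM in exercise and 602, 442 and 394 CPM in sedentary libraries.

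The chemokine genes Ccl4 and Ccl3, neighbours on chromosome 11, had log2 differences of −1.79 and −3.36 in the 209 cells (edgeR adjusted p = 4.09e-05 and 0.00085) and were not called in all 233 cells (adjusted p = 1 and 0.141). Ccl4 was at 537, 13.0 and 19.3 CPM in exercise and 933, 187 and 127 CPM in sedentary regulatory T cells, and at 1444, 1006 and 368 CPM in exercise and 924, 537 and 468 CPM in sedentary CD8 T cells. Ccl3 was at 10.7, 0 and 38.6 CPM in exercise and 210, 51.0 and 42.2 CPM in sedentary regulatory T cells, and at 489, 336 and 127 CPM in exercise and 447, 211 and 235 CPM in sedentary CD8 T cells. Outside sedentary library 1 the regulatory T cell values of Ccl3 rest on few UMIs, as do those of Ccl4 in exercise libraries 6 and 8. The regulatory T cell sums of these 2 libraries were 77082 and 51753 UMIs. Leaving out single libraries gave differences of −4.99 to −0.66 for Ccl4 and −4.81 to −2.37 for Ccl3, each called in 3 of 6 such fits. Both calls were lost without exercise library 6 and without sedentary library 1.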

How the results depend on the processing

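The share of regulatory T cells among kept barcodes changed sign when sedentary library 1 was left out, and the difference (exercise minus sedentary) ranged from −0.300 to 0.0860 percentage points over the 6 fits without 1 library. For the T cell share it ranged from −3.73 to −0.62 and for the log2 CD8 ratio from 0.23 to 1.12. The exercise comparison (0 calls) gave 2 with DESeq2 and 63 without a filter on low counts, and 0 to 146 without single libraries. Regulatory T cells against CD8 T cells (480 calls) gave 804 without the filter, 958 without RNA of other cells, 886 with each barcode limited to 5000 UMIs and 260 to 588 without single libraries. With at least 2 Foxp3 UMIs the split was 177 higher and 287 lower. Without the library as a replicate block it gave 333 higher and 173 lower. Against Foxp3-negative Cd4 T cells (3 calls) the counts were 28 without the filter, 1 without the replicate block, 0 with at least 2 Foxp3 UMIs, 1 without Scrublet doublets, 39 without RNA of other cells, 26 with 5000 UMIs and 0 to 7 without single libraries. The interaction (2 calls) gave 0 with DESeq2, 26 without the filter, 1 with at least 2 Foxp3 UMIs, 4 with no C1q UMI, 0 without Scrublet doublets, 0 at a mitochondrial limit of 10%, 12 with 5000 UMIs and 0 to 70 without single libraries. Detected Ccr8 (0 calls) gave 1 with DESeq2, 1 without the filter, 1 without the replicate block, 1 with at least 2 Foxp3 UMIs and 0 to 24 without single libraries. Without RNA of other cells, Cd74 in the interaction changed sign to 0.52 and Mt1 in the exercise comparison to −0.27. The causes were not tested. Against CD8 T cells, the genes recomputed under every alternative kept their direction and lost no call. In 12 of these recomputed results a gene that was not called at first was called. Calls of other genes lost without single libraries are named with them above. No paired analysis was possible because the exercise and sedentary libraries share no replicate number; the classes of 1 library were blocked by library. The 5000 UMI limit and the removal of barcodes with RNA of other cells were chosen after seeing the data. Few regulatory T cells per library limit every comparison.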
